A study of Mus musculus with 17 samples.

Results

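Tibialis anterior muscle, the dorsiflexor on the front of the shin, was compared between 3 immobile hindlimbs and 3 mobile hindlimbs, with 1 bead array for each limb. These 6 arrays of the 17 in the series were chosen by their titles, Control Immobile and Control Mobile, and the comparison runs over all measured genes with 1 probe for each gene. The immobile group holds muscles taken after 3 days of hindlimb immobilization, and the mobile group holds muscles of mobile hindlimbs taken at the same day. Both groups come from male mice aged 8 weeks that were littermate controls of p53 mKO mice, a knockout of the tumour suppressor p53. The labels do not give the alleles or strain of these littermates, the way the limbs were immobilized, or which limbs shared a mouse. The p-values therefore measure the spread between arrays, which may be technical. The wider series asks what p53 does in wasting muscle, and it also holds 3 arrays of immobile limbs of p53 mKO mice, which enter here through their spread and as a second set of immobile limbs, and 8 arrays of plasmid-transfected muscle that were not used.

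Skeletal muscle tunes its mass and its fuel use to the load and to the nerve traffic it receives. When a limb is held still, protein breakdown by ubiquitin ligases, the proteasome and autophagy comes to exceed synthesis, and fibres shrink within days. Contraction also drives calcium signals through calcineurin and calmodulin-dependent kinases, and energy signals through the coactivators of mitochondrial genes. Well known atrophy genes, proteasome subunits and respiratory enzymes are left aside here in favour of other programmes.

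The fibre genes bore out the labelled tissue. Skeletal actin Acta1 read 15.46, 15.23 and 15.28 log2 on immobile control arrays 1, 2 and 3, against 15.27, 15.42 and 15.40 on the mobile control arrays. Creatine kinase Ckm, the fast myosin Myh4, the troponin Tnnt3, the light chain Mylpf and the calcium pump Atp2a1 all lay at 14.92 or above on each of these arrays, near the top of a scale that runs from 8.21 to 15.61. None of the 19 tested fibre markers was called. Limma tested 10842 genes, and with Benjamini-Hochberg adjustment over all of them at a threshold of 0.05, 553 genes rose (5.1%) and 690 fell (6.36%). Of these, 51 rose and 48 fell at least 2-fold. The shares of 5.1% risen and 6.36% fallen are the background for the counts of every gene list below. The 3 immobile values and the 3 mobile values did not overlap for 3402 genes (31.4%), so that separation alone was common. When each of the 6 arrays was left out in turn, 568 of the 1243 called genes kept their call every time, 208 of the risen and 360 of the fallen.

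Cd82, a tetraspanin that marks human muscle satellite cells, read 11.16, 10.83 and 11.09 on the immobile arrays, against 9.88, 9.55 and 9.47 on the mobile arrays (log2 difference 1.39 ± 0.12 SE, 2.63-fold, limma's adjusted p = 0.000566). It was the 1 risen gene among 13 tested satellite cell markers (7.69%, against 5.1% of all genes). Of these markers 8 lay higher and 5 lower in immobile limbs. Myod1 differed by 0.47 ± 0.14 (adjusted p = 0.0743) and Notch3 by -0.17 ± 0.13 (adjusted p = 0.470). Without immobile array 3, 3 of these markers were called as risen and 1 as fallen. Sarcolipin, Sln, a small peptide that inhibits the calcium pump of the sarcoplasmic reticulum, read 10.10, 10.61 and 10.56 in immobile limbs, against 9.41, 9.22 and 9.21 in mobile limbs (1.14 ± 0.13, adjusted p = 0.00183). Every immobile value of both genes lay above every mobile one, with array 2 the lowest for Cd82 and array 1 the lowest for Sln. Ppp1r27, a regulatory subunit of protein phosphatase 1, reached 14.12, 14.66 and 14.37 on the immobile arrays, against 13.31, 13.18 and 13.07 on the mobile arrays (1.20 ± 0.14). Mknk2, the kinase that phosphorylates the cap-binding factor eIF4E, rose by 1.14 ± 0.18. Its immobile values of 13.39, 14.06 and 14.09 put array 1 apart from the other 2, against 12.87, 12.66 and 12.58 on the mobile arrays.

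Tgif1, a repressor of TGF-beta responses, rose by 1.14 ± 0.12 (called on 2 of 3 probes) and Tgfbr1, the type I receptor of that pathway, by 0.98 ± 0.09 (also 2 of 3 probes). Lrba, a protein of vesicle traffic, rose by 1.29 ± 0.15 on the brighter of 2 probes, and the other probe gave -0.09. The vault protein Mvp (0.91 ± 0.07), the arginine methyltransferase Prmt1 (0.86 ± 0.06), the myristoyl transferase Nmt1 (0.84 ± 0.06) and the glycogen-binding protein Stbd1 (0.90 ± 0.09) rose with small errors. Prmt1 read 13.17, 13.35 and 13.32 in immobile limbs, against 12.48, 12.40 and 12.39 in mobile limbs, without overlap. All genes named so far as risen kept their call when any 1 array was left out. Others of similar size did not: Arpp21 (1.25 ± 0.29, adjusted p = 0.0298), a regulatory phosphoprotein, went to 0.0751 without immobile array 2 and to 0.0872, 0.113 and 0.0725 without mobile arrays 1, 2 and 3. Chrna9 (1.22 ± 0.28, adjusted p = 0.0300), a nicotinic receptor subunit, went to 0.0831, 0.103 and 0.0986 without those mobile arrays, and its immobile values of 9.26, 9.39 and 10.45 placed array 3 far above the others, against 8.50, 8.49 and 8.45 in mobile limbs.

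**Figure D1:**
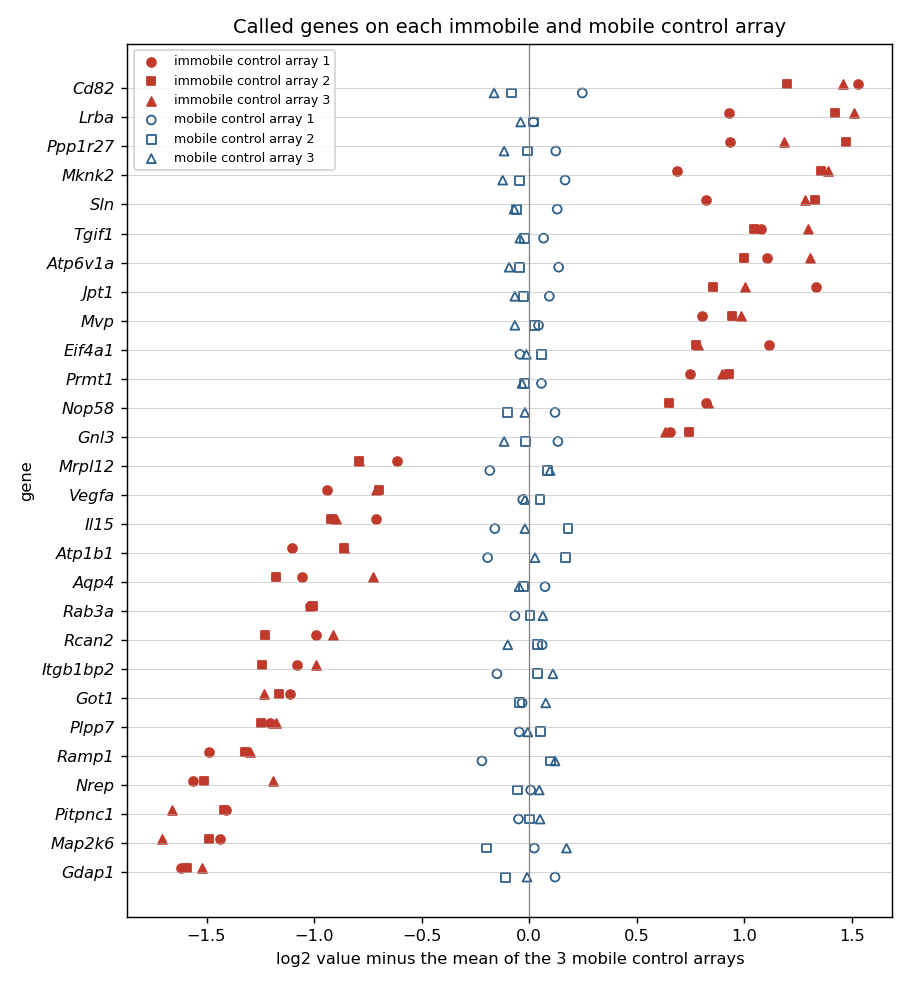
Log2 value of 28 called genes minus the mean of the 3 mobile control arrays (x axis), with filled red symbols for immobile control arrays and open blue symbols for mobile control arrays. No immobile symbol of these genes overlaps a mobile one, and Rab3a, at 9.99, 10 and 9.99 in immobile limbs, nearly coincides on all 3 of them.

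Of 40 tested genes of nucleolar ribosome assembly and RNA polymerase I, 13 rose and 0 fell (32.5% risen, against 5.1% of all genes), and their median log2 difference was 0.24, against 0.0033 over all genes. Nop58, a core protein of the small nucleolar particles that guide rRNA methylation, read 10.45, 10.28 and 10.46 in immobile limbs, against 9.75, 9.53 and 9.61 in mobile limbs (0.77 ± 0.11, adjusted p = 0.00374). Heatr1, a factor of early rRNA processing, rose by 0.80 ± 0.14 on 1 of 3 probes, and the nucleolar GTPase Gnl3 by 0.68 ± 0.07 on 1 of 2. Gar1, of the particles that make pseudouridine, rose by 0.52 ± 0.09. Relative to the mobile mean, the list averaged 0.25, 0.27 and 0.34 log2 units on immobile arrays 1, 2 and 3. The count rested on the mobile arrays: it was 7, 5 and 5 without mobile array 1, 2 or 3. Nucleophosmin, Npm1 (0.54 ± 0.10), lost its call without mobile array 2 (adjusted p = 0.0534) or 3 (0.0503), and fibrillarin, Fbl (0.50 ± 0.12), without mobile array 1 (0.0986), 2 (0.0739) or 3 (0.0830).

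Of 34 tested translation factors, 5 rose (14.7%, against 5.1% of all genes) and 2 fell (5.88%, near the 6.36% of all genes). The helicase Eif4a1, which unwinds messenger RNA leaders, read 13.73, 13.39 and 13.40 in immobile limbs, against 12.57, 12.67 and 12.60 in mobile limbs (0.89 ± 0.09, called on both of its probes). Its partner Eif4e, the cap-binding protein, fell to 8.91, 8.89 and 8.93 in immobile limbs, against 9.41, 9.44 and 9.44 in mobile limbs (-0.52 ± 0.04, adjusted p = 0.000188). These 2 members of one initiation complex therefore went opposite ways, each with no overlap between groups. Eif1a (0.60 ± 0.10), which scans for start codons, Eif6 (0.35 ± 0.05), which keeps the ribosomal subunits apart, and Eif3d (0.38 ± 0.07) also rose. The count of fallen factors was 1 in 5 of the 6 fits that left out an array, all but the one without immobile array 3. Of 18 chaperonin and prefoldin genes 4 rose (22.2%, against 5.1% of all genes) and 0 fell. The rises were led by Cct3 (0.50 ± 0.05, called on 1 of 2 probes). The risen count was 2, 2, 1 and 1 without immobile array 1 or mobile arrays 1, 2 and 3.

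Of 37 tested lysosomal genes 6 rose and 0 fell (16.2% risen, against 5.1% of all genes), with a median log2 difference of 0.30. Of the 6, 4 encode parts of the proton pump that acidifies lysosomes. Atp6v1a, the catalytic subunit, read 10.74, 10.63 and 10.94 in immobile limbs, against 9.77, 9.59 and 9.54 in mobile limbs (1.14 ± 0.16, adjusted p = 0.00419). Atp6v1h, a regulatory subunit, read 11.58, 11.52 and 11.71 in immobile limbs, against 10.87, 10.84 and 10.76 in mobile limbs (0.78 ± 0.05, adjusted p = 0.000188). Both groups of both genes were well apart and tight. Atp6ap2 (0.52 ± 0.07) was called on 1 of 4 probes, which ran from -0.08 to 0.52, and Atp6v0d1 (0.43 ± 0.07) on 2 of 4. Over a list of all pump subunits that was drawn up after these values were seen, 4 of 19 rose (21.1%) and 0 fell. The median of that list was 0.09. The other 2 risen lysosomal genes were Hexa (0.76 ± 0.15), a hexosaminidase subunit, which lost its call without mobile array 2 (adjusted p = 0.0608) or 3 (0.0606), and the membrane protein Lamp1 (0.30 ± 0.08), which lost it without mobile array 1 (0.115), 2 (0.107) or 3 (0.136) and immobile array 1 (0.10) or 3 (0.0950). The lysosomal list shifted by 0.61, 0.26 and 0.21 on immobile arrays 1, 2 and 3, while the 19 tested macrophage markers shifted by 1.58, 0.60 and 0.30 on the same arrays. Macrophages are rich in lysosomes, and their part in the lysosomal rise was not tested.

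In the endoplasmic reticulum, 4 of 21 tested folding genes rose (19.0%, against 5.1% of all genes) and 0 fell. Xbp1, a transcription factor of the unfolded protein response, read 12.93, 12.92 and 12.91 in immobile limbs, against 12.44, 12.33 and 12.32 in mobile limbs (0.56 ± 0.06, adjusted p = 0.00101). Its immobile values differed by no more than 0.02. P4hb, the disulfide isomerase, rose by 0.50 ± 0.07. The count was 2 without mobile array 2 or 3. Among 19 amino acid transporters 3 rose (15.8%) and 1 fell (5.26%, against 6.36% of all genes). The taurine carrier Slc6a6 rose (0.57 ± 0.07) and the arginine carrier Slc7a2 fell (-0.40 ± 0.04). Of 32 genes of AMPK and mTOR signalling 3 rose (9.38%) and 1 fell (3.12%), and 28 were not called. Among them Flcn (0.55 ± 0.09, 1 of 2 probes) and the Rag GTPase Rragc (0.38 ± 0.06) rose and the AMPK subunit Prkag1 fell (-0.40 ± 0.07).

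**Figure D2:**
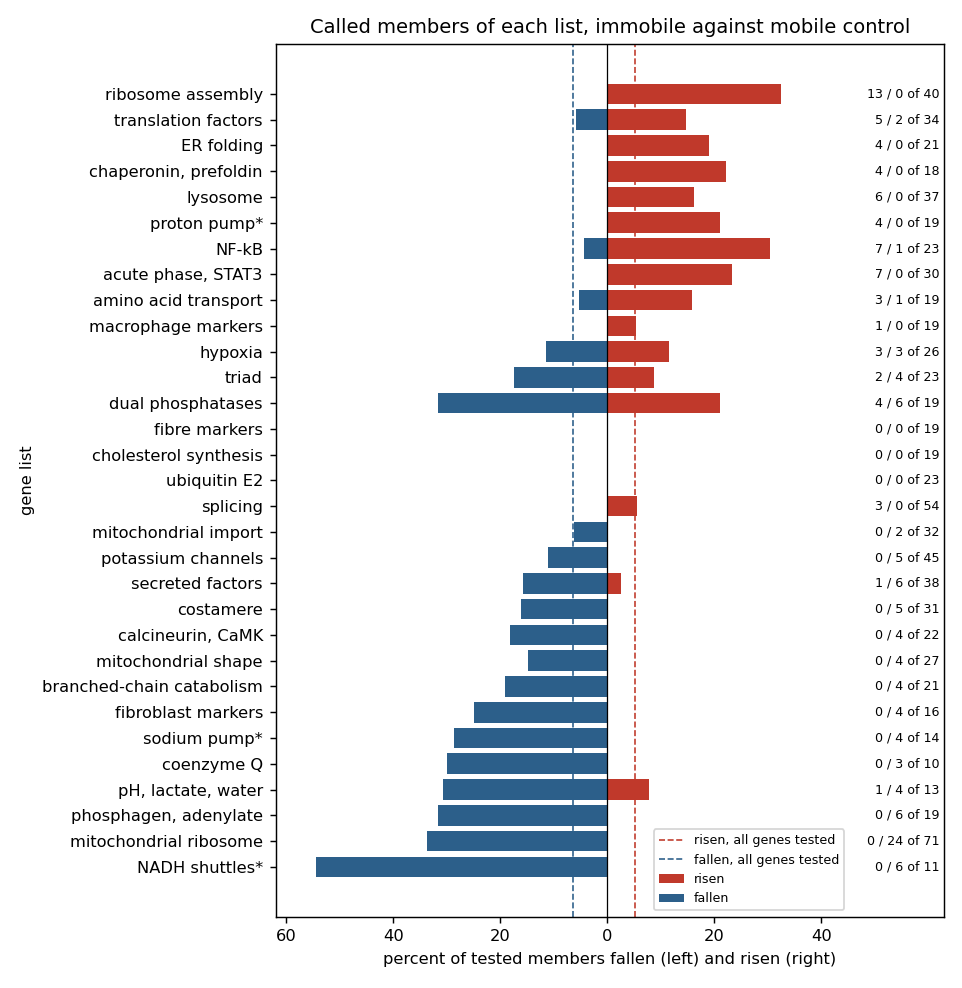
Share of the tested members of 31 gene lists that fell (bars to the left) or rose (bars to the right), in percent, with risen and fallen counts of tested members at the right edge. Dashed lines mark the shares over all genes tested, 5.1% risen and 6.36% fallen, and asterisks mark lists drawn up after the values were seen.

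Among genes with large falls and values close together within each group, Gdap1, a mitochondrial outer membrane protein whose human gene is mutated in Charcot-Marie-Tooth neuropathy, read 9.45, 9.48 and 9.55 in immobile limbs, against 11.19, 10.96 and 11.06 in mobile limbs (-1.58 ± 0.07, 2.98-fold, called on both probes, adjusted p = 4.56e-05). Map2k6, a kinase that activates p38, fell to 8.81, 8.76 and 8.54, against 10.27, 10.05 and 10.42 in mobile limbs (-1.54 ± 0.11, called on all 3 probes). The lipid transfer protein Pitpnc1 read 9.51, 9.50 and 9.26 in immobile limbs, against 10.87, 10.92 and 10.97 in mobile limbs (-1.50 ± 0.08). In these 3 genes each immobile array lay more than 1 log2 unit below every mobile array. Nrep, a protein first described in regenerating neurons, fell by 1.42 ± 0.09 and stayed among the brighter genes, at 12.50, 12.55 and 12.87 in immobile limbs, against 14.07, 14.01 and 14.11 in mobile limbs. Ramp1, the partner of the receptor for calcitonin gene-related peptide, fell by 1.37 ± 0.10, and the integrin subunit Itgb6 by 1.30 ± 0.10 on all 3 probes. Plpp7, a nuclear envelope protein of muscle, read 9.49, 9.45 and 9.52 in immobile limbs, against 10.65, 10.75 and 10.69 in mobile limbs (-1.21 ± 0.04, adjusted p = 2.48e-05). Rab3a, a GTPase of secretory and synaptic vesicles, was nearly identical on the immobile arrays, at 9.99, 10 and 9.99 in immobile limbs, against 10.94, 11.01 and 11.07 in mobile limbs (-1.01 ± 0.05). Lynx1, which modulates nicotinic acetylcholine receptors, fell by 1.16 ± 0.09 on both probes, and Grb14, an adaptor that restrains the insulin receptor, by 0.88 ± 0.05 on both. All of these falls held when any 1 array was left out.

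Several genes that carry reducing equivalents between cytosol and mitochondria fell. Got1, the cytosolic aspartate aminotransferase, read 10.60, 10.55 and 10.48 in immobile limbs, against 11.68, 11.67 and 11.79 in mobile limbs (-1.17 ± 0.06, 2.25-fold, adjusted p = 7.73e-05). Mdh1, the cytosolic malate dehydrogenase, fell by 1.06 ± 0.18 on its brightest probe and was called on all 3, and Slc25a11, the oxoglutarate carrier, by 0.56 ± 0.09. Together with the mitochondrial partner Got2 (-0.22 ± 0.03) these make up most of the malate-aspartate shuttle, which carries NADH equivalents inward. Gpd1, the cytosolic enzyme of the glycerol phosphate shuttle, read 9.95, 9.74 and 10.28 in immobile limbs, against 10.69, 11.09 and 11.24 in mobile limbs (-1.02 ± 0.18). Of 11 tested shuttle genes, in a list drawn up after these values were seen, 6 fell and 0 rose (54.5%, against 6.36% of all genes), with a median of -0.37. Mdh2 (-0.46 ± 0.11) was the 1 of the 6 that did not hold, at adjusted p = 0.115 and 0.104 without mobile array 2 or 3 and 0.0603 and 0.0784 without immobile array 1 or 2. Relative to the mobile mean, the list averaged -0.50, -0.44 and -0.44 on immobile arrays 1, 2 and 3.

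The promoters of Got1 and of 2 other genes that fell at least 2-fold, Perm1, a regulator of oxidative metabolism (-2.32 ± 0.13), and Mlf1 (-1.67 ± 0.11), hold the 7-letter element AAGGTCA, which estrogen-related receptors bind. They are shown because they are the 3 promoters of such falls that hold the element. These receptors are known to drive genes of muscle oxidative metabolism, and their part in these falls was not tested. Each sequence runs from 250 bases before to 50 bases after the start of the gene in RefSeq for the mouse build GRCm38.p6, read 5′ to 3′ on the strand of the gene, with the element in capitals (TGACCTT where it lies on the other strand).
Perm1 promoter, chr4:156215677-156215976, plus strand: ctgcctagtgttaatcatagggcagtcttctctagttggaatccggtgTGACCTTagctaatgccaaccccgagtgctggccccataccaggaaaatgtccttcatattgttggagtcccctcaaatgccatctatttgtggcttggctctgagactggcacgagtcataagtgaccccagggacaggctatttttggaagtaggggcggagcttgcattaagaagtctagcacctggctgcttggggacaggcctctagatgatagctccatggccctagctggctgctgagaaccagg
Got1 promoter, chr19:43524556-43524855, minus strand: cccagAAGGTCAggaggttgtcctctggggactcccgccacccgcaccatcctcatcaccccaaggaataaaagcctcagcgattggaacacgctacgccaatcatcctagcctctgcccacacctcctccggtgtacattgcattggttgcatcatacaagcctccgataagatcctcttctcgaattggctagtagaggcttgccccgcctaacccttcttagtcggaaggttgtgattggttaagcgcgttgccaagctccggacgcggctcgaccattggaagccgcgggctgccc
Mlf1 promoter, chr3:67373847-67374146, plus strand: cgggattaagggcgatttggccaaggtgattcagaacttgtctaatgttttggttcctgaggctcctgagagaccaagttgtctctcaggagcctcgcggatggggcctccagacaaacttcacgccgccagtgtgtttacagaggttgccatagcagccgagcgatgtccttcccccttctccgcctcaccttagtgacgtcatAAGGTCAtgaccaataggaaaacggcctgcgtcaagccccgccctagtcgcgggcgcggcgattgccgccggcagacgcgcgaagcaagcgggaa
Searched on both strands, the element was found in 33 of 562 promoters of fallen genes (5.87%), in 10 of 443 promoters of risen genes (2.26%) and in 297 of 8775 promoters of all tested genes (3.38%). Promoters were matched by symbol, and the first listed was taken for each gene. Of the other motifs searched, the E-box CAGCTG was in 16.4% of fallen, 16.7% of risen and 15.3% of all promoters, and the AP-1 element TGANTCA in 5.87%, 6.55% and 5.45%. The box CCAAT was in 41.6%, 42.4% and 38.5% in the same order, and the half-sites ACANNNTGT of the glucocorticoid receptor in 4.09%, 4.51% and 4.59%. In promoters of the genes that rose at least 2-fold (41 with a promoter) and fell at least 2-fold (36), AAGGTCA was in 1, that of Lrba, and in the 3 shown. The shares in large rises and large falls were 29.3% and 22.2% for CAGCTG, 14.6% and 11.1% for TGANTCA, 41.5% and 47.2% for CCAAT, and 12.2% and 5.56% for ACANNNTGT. These are counts of letters and not of bound sites.

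Of 71 tested proteins of the mitochondrial ribosome, which translates the few proteins encoded in mitochondria, 24 fell and 0 rose (33.8%), with a median log2 difference of -0.19. Mrpl12, which also contacts the mitochondrial RNA polymerase, read 12.11, 11.93 and 11.93 in immobile limbs, against 12.54, 12.81 and 12.82 in mobile limbs (-0.73 ± 0.09, adjusted p = 0.00209). Mrpl34 fell by 0.68 ± 0.08 and Mrpl47 by 0.58 ± 0.06, the last on both probes. Their falls were several times larger than the list's median, and 54 of the 71 genes lay lower in immobile limbs. The count was 16, 14 and 18 without immobile array 1, 2 or 3 and 13, 6 and 9 without mobile array 1, 2 or 3. On immobile arrays 1, 2 and 3 the list averaged -0.22, -0.15 and -0.19 relative to the mobile mean.

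Among 27 genes of mitochondrial shape and cristae, 4 fell (14.8%, against 6.36% of all genes) and 0 rose. These were the fusion proteins Mfn2, at 13.50, 13.75 and 13.63 in immobile limbs, against 14.13, 14.18 and 14.18 in mobile limbs (-0.54 ± 0.09, both probes), and Mfn1 (-0.50 ± 0.06, 2 of 3 probes), the protease Oma1 (-0.42 ± 0.07) and the cristae protein Micos13 (-0.37 ± 0.05). All 4 kept their calls. Of 10 coenzyme Q genes 3 fell, the hydroxylase Coq7 (-0.53 ± 0.08), Coq9 (-0.48 ± 0.07) and the methyltransferase Coq5 (-0.39 ± 0.07), which was called on 1 of 3 probes and lost its call without mobile array 2 (adjusted p = 0.0550) or 3 (0.0572). Of 19 genes of phosphagen and adenine nucleotide balance 6 fell (31.6%) and 0 rose. Adenylate kinase Ak1 read 13.54, 13.52 and 13.66 in immobile limbs, against 14.03, 14.06 and 14.09 in mobile limbs (-0.49 ± 0.06). Mitochondrial creatine kinase Ckmt2 fell by 0.29 ± 0.05. The fallen count was 4 without mobile array 2 or 3, and the list median was -0.0033. In branched-chain amino acid breakdown and ketone use, 4 of 21 genes fell (19.0%) and 0 rose. The list median was -0.0033, with 10 of the 21 genes higher and 11 lower in immobile limbs. The list averaged -0.25, -0.06 and 0.05 relative to the mobile mean on immobile arrays 1, 2 and 3. The falls were led by the phosphatase Ppm1k (-0.56 ± 0.08), which activates the branched-chain dehydrogenase, and by Oxct1 (-0.48 ± 0.08). The count was 2 without mobile array 2. Import of proteins into mitochondria gave 2 falls among 32 genes (6.25%), near the share over all genes, and 0 to 2 when an array was left out.

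Several genes of the excitable membrane and of its ion balance fell. Atp1b1, the beta subunit of the sodium-potassium pump, read 11.82, 12.06 and 12.06 in immobile limbs, against 12.73, 13.09 and 12.95 in mobile limbs (-0.94 ± 0.11, adjusted p = 0.00179). In a list of sodium pump and chloride channel genes drawn up after the values were seen, 4 of 14 fell (28.6%, against 6.36% of all genes) and 0 rose. The others were Atp1b4 (-0.47 ± 0.08), the pump regulator Fxyd1 (-0.49 ± 0.11) and the chloride channel Clcn1 (-0.64 ± 0.12, 1 of 2 probes). Clcn1 lost its call without mobile array 2 (adjusted p = 0.0638), and Fxyd1 without mobile array 2 (0.109) or 3 (0.0820) or immobile array 2 (0.0529). The count was 2 without mobile array 2. Of 45 potassium channel genes 5 fell and 0 rose (11.1% fallen, against 6.36% of all genes). Beside 2 fast-fibre channels with large falls, Kcng4, a modifying subunit, read 8.86, 8.68 and 8.92 in immobile limbs, against 10.17, 10.29 and 10.05 in mobile limbs (-1.35 ± 0.09, both probes). The inward rectifier Kcnj2 fell by 0.51 ± 0.09 and lost its call without mobile array 2 (0.0515), and that count was then 3.

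Of 13 genes of water, acid and lactate handling 4 fell (30.8%) and 1 rose (7.69%, against 5.1% of all genes). The water channel Aqp4 read 9.11, 8.99 and 9.44 in immobile limbs, against 10.24, 10.14 and 10.12 in mobile limbs (-0.99 ± 0.12). The membrane carbonic anhydrase Car14 (-0.72 ± 0.09), the lactate exporter Slc16a3 (-0.74 ± 0.07, 1 of 2 probes) and lactate dehydrogenase Ldha (-0.57 ± 0.09) fell as well. Embigin, Emb, a partner of lactate carriers, rose, at 10.49, 10.27 and 9.77 in immobile limbs, against 9.05, 9.01 and 9.12 in mobile limbs (1.12 ± 0.20), and lost its call without mobile array 2 (adjusted p = 0.0516).

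At the triad, where the membrane signal releases calcium, 4 of 23 genes fell (17.4%, against 6.36% of all genes) and 2 rose (8.70%, against 5.1%). The calcium-binding protein Hrc read 13.61, 13.83 and 13.91 in immobile limbs, against 14.32, 14.40 and 14.43 in mobile limbs (-0.60 ± 0.08). The junctional protein Jph2 fell by 0.38 ± 0.05 on both probes, and Asph by 0.68 ± 0.07 on its brightest probe, the 1 called of 9, which ran from -0.68 to 0.10. The calcium channel subunit Cacng1 (0.57 ± 0.10) and the tubule-shaping protein Bin1 (0.33 ± 0.05, 1 of 3 probes) rose. Of 31 costamere genes, which tie the contractile apparatus to the membrane and matrix, 5 fell and 0 rose (16.1%). Melusin, Itgb1bp2, a muscle protein that binds beta-1 integrin, read 10.34, 10.18 and 10.43 in immobile limbs, against 11.27, 11.46 and 11.53 in mobile limbs (-1.10 ± 0.10). Dystrobrevin, Dtna, fell on all 4 probes (-0.81 ± 0.08 on the brightest, -1.0 to -0.23 over all), and sarcospan, Sspn, by 0.61 ± 0.10. The costamere count was 3 without immobile array 1 or without mobile array 2 or 3.

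In calcium signalling, 4 of 22 genes of the calcineurin and calmodulin kinase list fell and 0 rose (18.2%). Rcan2, a modulator of calcineurin, read 10.51, 10.27 and 10.59 in immobile limbs, against 11.56, 11.54 and 11.40 in mobile limbs (-1.04 ± 0.09, all 3 probes). Camk2a, a calmodulin-dependent kinase, fell by 0.79 ± 0.12 on all 3 probes. Of 9 calpains, the calcium-activated proteases, 2 fell (22.2%) and 0 rose. Capn3, the muscle form whose loss causes a human limb-girdle dystrophy, read 9.60, 9.99 and 9.43 in immobile limbs, against 10.75, 10.75 and 10.72 in mobile limbs (-1.07 ± 0.16, both probes), and the ubiquitous Capn1 fell by 0.35 ± 0.05. The dual-specificity phosphatases, which switch off MAP kinases, split: 4 of 19 rose (21.1%) and 6 fell (31.6%). Dusp10 fell by 0.96 ± 0.09 on both probes and Dusp4 rose by 0.54 ± 0.09 on 1 of 2, both holding without any 1 array. The risen count was 1 without mobile array 2 or 3. The fallen count was 3 without immobile array 1 or 2 and 2, 2 and 3 without mobile array 1, 2 or 3.

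Among 38 genes of secreted muscle factors, 6 fell (15.8%, against 6.36% of all genes) and 1 rose (2.63%, against 5.1%). The vascular growth factor Vegfa read 12.00, 12.24 and 12.23 in immobile limbs, against 12.91, 12.99 and 12.92 in mobile limbs (-0.78 ± 0.08, both probes). Its relative Vegfb fell by 0.62 ± 0.06, and Vegfd, which acts on lymphatic vessels, rose by 0.53 ± 0.07. Interleukin 15, Il15, a cytokine made by muscle, read 9.58, 9.37 and 9.39 in immobile limbs, against 10.13, 10.47 and 10.27 in mobile limbs (-0.84 ± 0.10, 2 of 3 probes). The muscle growth factor Fgf6 fell by 0.42 ± 0.06. The count of falls was 4 without mobile array 2 or 3, and that of rises was 3 without immobile array 1. In the hypoxia list 3 of 26 rose and 3 fell (11.5% each). Egln1 and Egln3, both oxygen-sensing hydroxylases, went opposite ways: Egln1 fell (-0.75 ± 0.11, all 3 probes) and Egln3 rose (0.67 ± 0.09, 1 of 2 probes). Of 16 endothelial markers, 15 lay lower in immobile limbs and 1 was called as fallen (6.25%, near the 6.36% of all genes). Their mean shift was -0.25, -0.11 and -0.04 on immobile arrays 1, 2 and 3. The part of vessel cells in the fall of Vegfa was not tested. In bulk muscle, fewer cells of a type and less RNA in each cell cannot be told apart.

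Of 23 genes of the NF-kB pathway 7 rose and 1 fell (30.4% risen), with a median log2 difference of 0.23. Nfkb2 read 8.97, 9.14 and 9.20 in immobile limbs, against 8.61, 8.53 and 8.58 in mobile limbs (0.53 ± 0.07), and the adaptor Traf2 read 9.58, 9.89 and 10.07 in immobile limbs, against 9.20, 8.97 and 8.89 in mobile limbs (0.83 ± 0.14). Nfkbiz, an inducible regulator, rose by 0.40 ± 0.05. The NF-kB target Tnfaip2 went the other way on all 3 probes (-0.87 ± 0.13). The risen count was 4, 3 and 3 without mobile array 1, 2 or 3. Relb (0.78 ± 0.16) lost its call without mobile array 1 (adjusted p = 0.0502), 2 (0.0608) or 3 (0.0678). Interleukin 1 beta, Il1b, read 10.36, 9.74 and 8.97 in immobile limbs, against 8.48, 8.47 and 8.40 in mobile limbs (1.24 ± 0.30, adjusted p = 0.0331). It was highest on array 1 and lowest on array 3, as the mean of the macrophage markers was. It lost its call without mobile array 1 (0.0874), 2 (0.108) or 3 (0.107) or immobile array 2 (0.0826).

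The acute phase and STAT3 list had 7 risen of 30 (23.3%) and 0 fallen. Of the 7, Serpina3n alone kept its call without any 1 array, and the count was 2, 4 and 1 without mobile array 1, 2 or 3 and 3 without immobile array 2. Stat3 read 10.88, 11.24 and 11.42 in immobile limbs, against 10.37, 10.39 and 10.28 in mobile limbs (0.83 ± 0.20, called on 1 of 3 probes), and Cebpb 12.96, 13.18 and 13.76, against 12.40, 12.19 and 12.48 (0.94 ± 0.24). Both were highest on immobile array 3 and lowest on array 1. Stat3 went to adjusted p = 0.0912, 0.108 and 0.117 without mobile arrays 1, 2 and 3 and to 0.0887 and 0.0802 without immobile arrays 2 and 3. Cebpb went to 0.103, 0.153 and 0.0988 without the same mobile arrays and to 0.0772 and 0.0728 without the same immobile arrays. Of 13 tested complement genes 1 rose and 1 fell (7.69% each, near the 5.1% and 6.36% of all genes). Cfb, factor B of the alternative pathway, rose and held (0.62 ± 0.08), and the complement inhibitor Cd59a fell (-0.33 ± 0.06).

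Markers of other cells were read beside these programmes. Of 19 tested macrophage markers, 18 lay higher in immobile limbs and 1, Mrc1, was called (5.26%, near the 5.1% of all genes). Mrc1 read 11.79, 11.25 and 11.06 in immobile limbs, against 10.15, 9.96 and 10.12 in mobile limbs (1.29 ± 0.21, adjusted p = 0.00707). None of the other 18 was called. Many of them spread widely over the immobile arrays, though not all did. C1qb, a complement subunit made by macrophages, read 12.99, 11.37 and 10.84 in immobile limbs, against 10.10, 10.24 and 10.13 in mobile limbs (1.58 ± 0.49, adjusted p = 0.0834). The resident macrophage marker Cd163 did not share that order, at 9.80, 10.17 and 10.09 in immobile limbs, against 9.61, 9.41 and 9.69 in mobile limbs (0.45 ± 0.12, adjusted p = 0.0501). Timd4 was near the floor of the scale in both groups. It read 8.40, 8.43 and 8.43 in immobile limbs, against 8.46, 8.50 and 8.57 in mobile limbs (-0.09 ± 0.04, adjusted p = 0.212). Of the 19 markers 8 were called without immobile array 3, 3 without immobile array 1 and 2 without immobile array 2. Factor XIII subunit F13a1, made by macrophages, rose by 1.27 ± 0.15. Among fibroblast markers 4 of 16 fell, Igfbp6 (-0.78 ± 0.13), gelsolin Gsn (-0.65 ± 0.15), the matrix protein Mfap5 (-0.57 ± 0.09) and Dpp4 (-0.26 ± 0.06), and the count was 2 without immobile array 1 or mobile array 2 or 3. Of the fibroblast markers 5 lay higher in immobile limbs, among them the defining receptor Pdgfra, at 10.73, 10.70 and 10.98 in immobile limbs, against 10.66, 10.49 and 10.66 in mobile limbs (0.20 ± 0.09, adjusted p = 0.193). Gsn lost its call without immobile array 1 (0.0708) or 3 (0.0639) or mobile array 1 (0.0608), 2 (0.125) or 3 (0.0899), and Dpp4 without immobile array 1 (0.0847) or 2 (0.0887) or mobile array 2 (0.138) or 3 (0.124). Of 9 mast cell markers 1 rose (11.1%, against 5.1% of all genes). It was the histamine-forming enzyme Hdc (0.61 ± 0.07, adjusted p = 0.00214), which held without any 1 array. The other 8 were not called, among them Cpa3 (0.05 ± 0.13), Cma1 (0.06 ± 0.12), Tpsb2 (-0.05 ± 0.09) and Gata2 (-0.14 ± 0.09). Of the 9, 6 lay higher and 2 lower in immobile limbs. Of 14 dendritic cell markers 1 rose (7.14%, against 5.1% of all genes), the class II antigen H2-Ab1 (0.62 ± 0.16, adjusted p = 0.0458). H2-Ab1 lost its call without immobile array 1 (0.0845) or 2 (0.0864) or mobile array 1 (0.0629), 2 (0.128) or 3 (0.151). No neutrophil (of 9), erythroid (of 5), lymphocyte (of 5) or Schwann cell (of 6) marker was called. The share called was also 0 for 19 cholesterol synthesis genes, 23 ubiquitin-conjugating enzymes and 23 annexin and S100 genes, and the median log2 difference of the first 2 lists was -0.05 and 0.0033.

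**Figure D3:**
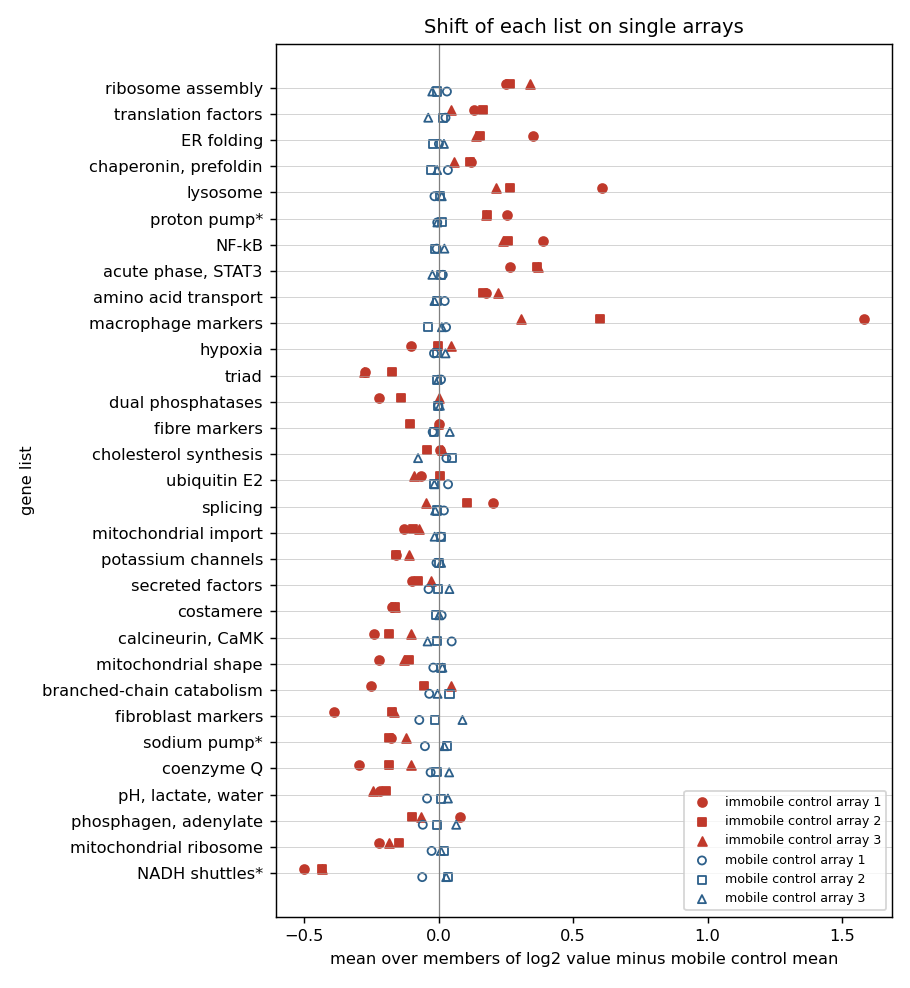
Mean over the tested members of 31 gene lists of the log2 value minus the mobile control mean (x axis), for each immobile control array (filled red) and mobile control array (open blue). The macrophage markers spread from 1.58 on immobile array 1 to 0.30 on array 3, while ribosome assembly keeps to 0.25 to 0.34 and the mitochondrial ribosome to -0.22 to -0.15.

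The immobile arrays differed among themselves more than the mobile arrays did. Over all tested genes the median SD over the 3 arrays was 0.0945 in immobile limbs and 0.0529 in mobile limbs, and the SD was larger in immobile limbs for 70.6% of genes. Large rises and large falls were unlike in this respect. Genes that rose at least 2-fold had a median SD of 0.369 in immobile limbs and 0.102 in mobile limbs. For genes that fell at least 2-fold it was 0.134 in immobile limbs and 0.128 in mobile limbs. Of the 51 large rises 28 kept their call without any 1 array, and of the 48 large falls 44 did. The risen genes as a whole averaged 0.53, 0.50 and 0.55 above the mobile controls on immobile arrays 1, 2 and 3, and the fallen genes averaged -0.56, -0.51 and -0.49. These means are over genes called with the same arrays, and the call favours genes that moved alike on all 3.

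**Figure D4:**
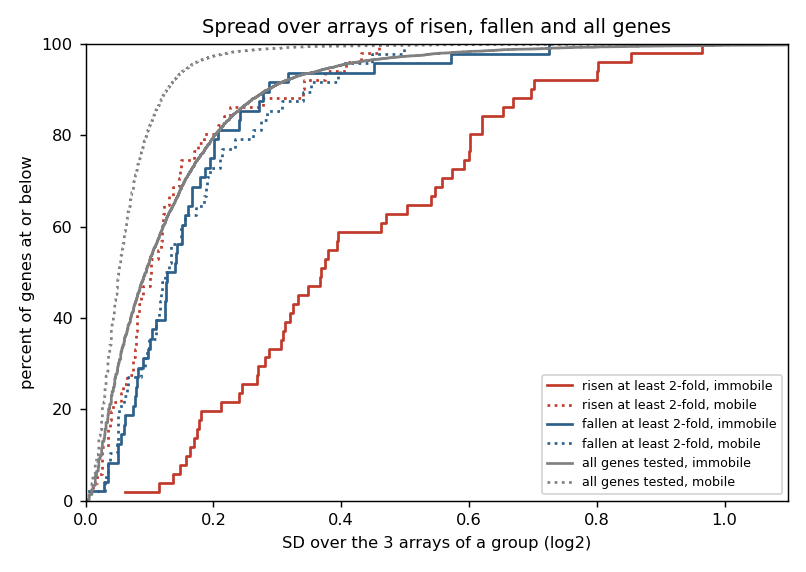
Cumulative share of genes (y axis, percent) by SD over the 3 arrays of a group (x axis, log2 units), with solid lines for immobile and dotted lines for mobile control arrays. Half-way up, genes that rose at least 2-fold sit at an SD of 0.369 in immobile limbs and 0.102 in mobile limbs, while genes that fell at least 2-fold sit at 0.134 and 0.128.

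Immobile array 1 stood apart mainly through higher values. On it 463 genes lay at least 0.5 log2 units above the mean of the other 2 immobile arrays and 143 below, where the mobile arrays had between 13 and 42 above and between 18 and 24 below. For 325 of the genes above, array 1 lay at least 0.5 above each of the other 2 immobile arrays, which lay within 0.5 of each other. Galanin, Gal, a neuropeptide, was the most extreme, at 11.92, 8.58 and 8.39 in immobile limbs, against 8.53, 8.46 and 8.47 in mobile limbs, so it was near the floor of the scale on all but 1 control array. Gpnmb, a glycoprotein of phagocytes laden with debris, read 13.55, 10.76 and 10.80 in immobile limbs, against 10.30, 10.03 and 9.92 in mobile limbs. The galectin Lgals3 read 14.37, 12.19 and 11.73 in immobile limbs, against 11.38, 10.31 and 10.33 in mobile limbs (2.09 ± 0.69, adjusted p = 0.0976), and it is the kind of large difference that was not called. Of the macrophage markers, 15 of 19 were among the 463, as were 23 of 83 genes of DNA replication and histones, a list drawn up after the values were seen, 17 of 38 of the cytoskeleton, 14 of 37 of the lysosome and 11 of 23 annexin and S100 genes, against 4.27% of all genes. The histone genes among them, such as H2ac10 at 12.02, 9.85 and 9.85 in immobile limbs, against 9.23, 9.35 and 8.98 in mobile limbs, have near-identical copies that one probe may not tell apart. In the 3 immobile p53 mKO limbs the array with the same number was the highest for 246 of the 325 genes (75.7%, against 24.3% of all genes). It was the highest by at least 0.5 for 17 of them (5.23%, against 0.184% of all genes), with Gal at 10.21, 8.91 and 8.65. Mobile array 1 was the highest of its group for 40.9% of the 325, against 31.0% of all genes.

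Immobile array 3 stood apart in both directions, with more genes below than above. On it 406 genes lay at least 0.5 below the mean of the other 2 immobile arrays and 275 above. For 170 genes array 3 lay at least 0.5 below each of the other 2 immobile arrays, which lay within 0.5 of each other. Of these 170, 4 were called, where the share called over all genes was 11.5%. The rule takes genes whose immobile arrays differ, which disfavours a call. Rbbp7, a histone-binding protein, read 11.38, 11.51 and 9.59 in immobile limbs, against 11.31, 11.29 and 11.24 in mobile limbs. The splicing factor Srsf5 read 12.20, 12.18 and 10.46 in immobile limbs, against 11.92, 12.09 and 11.88 in mobile limbs. Both lay above every mobile value on arrays 1 and 2 and below every mobile value on array 3. Of the 4 Rbbp7 probes 3 had this step. The other Srsf5 probe did not, at 11.73, 11.59 and 11.39 in immobile limbs, against 11.26, 11.53 and 11.38 in mobile limbs. Casq1, calsequestrin, the calcium store of fast fibres, read 12.54, 12.65 and 11.21 in immobile limbs, against 13.42, 13.50 and 13.51 in mobile limbs (-1.34 ± 0.44, adjusted p = 0.0971), lower on all 3 immobile arrays and lowest on array 3. In the p53 mKO limbs, array 3 was the lowest for all 170 of these genes (100%, against 30.2% of all genes). It was the lowest by at least 0.5 for 121 of them (71.2%, against 1.63% of all genes). Rbbp7 read 11.38, 11.38 and 9.76 there, and Srsf5 12.05, 12.17 and 10.59. Mobile array 3 was the lowest for 45.9% of the 170, against 29.5% of all genes.

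Other probes of the same genes shared this step in part. For 92 of the 170 genes another probe was tested, and of these 147 other probes 90 were also lowest on immobile array 3, 38 of them by at least 0.5. Eif4g2, a translation initiation factor, read 11.31, 11.35 and 9.28 in immobile limbs, against 11.45, 11.21 and 11.23 in mobile limbs on 1 probe, and 9.02, 9.35 and 9.58, against 9.35, 9.09 and 9.18, on the other, which did not step down. The 154 genes higher on array 3 alone by the same rule included the stress and clock genes Depp1, Ddit4 and Per1. Depp1 read 10.49, 10.44 and 12.43 in immobile limbs, against 9.40, 9.15 and 10.33 in mobile limbs, and Ddit4, an inhibitor of mTOR, read 9.86, 9.68 and 11.14, against 9.65, 9.42 and 10.81. For both, mobile array 3 was also the highest of its group. In p53 mKO limbs array 3 was the highest for 145 of the 154 (94.2%, against 46.1% of all genes). What the arrays of one number share is not given in the labels, and its part in these steps was not tested. With the immobile control and p53 mKO arrays numbered 3 both left out, an alternative chosen after these values were seen, 732 genes rose and 973 fell. With both arrays numbered 1 left out instead, 625 rose and 465 fell.

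**Figure D5:**
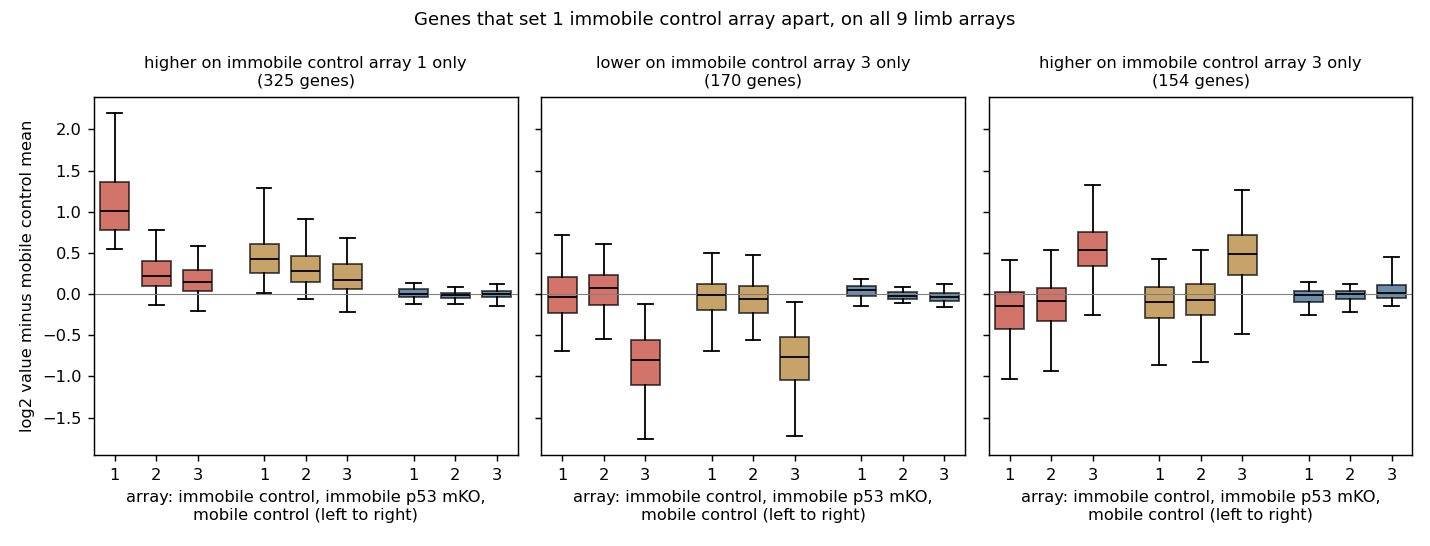
Log2 value minus the mobile control mean (y axis) of the genes that set 1 immobile control array at least 0.5 apart from the other 2, on immobile control (red), immobile p53 mKO (ochre) and mobile control (blue) arrays 1 to 3. Boxes span the quartiles with the median and whiskers the 5th to 95th percentiles; the p53 mKO array of the same number moves the same way, most fully for number 3.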

How the data were processed

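RNA of tibialis anterior was read on bead arrays after amplification to biotin-labelled cRNA, per the labels' protocols. The deposited values were taken as log2 intensities that the authors had normalized between arrays, because all 17 arrays ran from 8.21 to 15.61 with near-equal medians, and the log base, background correction and normalization are not given in the sources used here. Probes were named from the platform annotation, where 23978 of 25697 have 1 symbol and the rest were left out, and the probe with the brightest mean over the 17 arrays stood for its gene. Genes above the 40th percentile of an array in at least 3 of 9 arrays were tested (10842). Limma 3.58.1 in R 4.3.3 (lmFit, eBayes) was fitted to 9 arrays, the 3 immobile control, 3 immobile p53 mKO and 3 mobile control, with Benjamini-Hochberg adjustment over all genes, and every difference is immobile control minus mobile control with its SE. The script was tested on simulated data. Precision is limited by having 3 arrays per group. The comparison and the gene lists were chosen with earlier results of these data known. Genes were named from the 60 largest rises and falls, the 25 with the largest t in each direction, up to 5 members of each list by p, and the genes with the largest or smallest spread over immobile arrays, and a few others (the fibre genes of the tissue check, Casq1, Ddit4, Fbl, Lamp1, Mdh2, Npm1, Pdgfra, Per1, Srsf5, Stat3 and Timd4) were chosen after their values were seen. Alternatives changed the filter, normalization, probe rule, arrays fitted, weighting and pairing.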

Additional observations from a re-analysis of the deposited data

How the results depend on the processing

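The counts of 553 risen and 690 fallen genes moved by over 1.5 times under 2 settings other than leaving out an array. They were 1449 risen and 1348 fallen with array weights, and 123 risen and 292 fallen with a replicate block and only the 6 control arrays. Leaving out each control array in turn gave 235 to 679 risen and 385 to 729 fallen genes, with the fewest without mobile array 2 (235 and 385), and 271 risen without mobile array 3 and 337 without mobile array 1. In the fit of 9 arrays the replicate block gave 741 risen and 860 fallen genes, and 1185 of the 1243 calls remained. The labels do not say whether arrays of one number share a mouse, and the main fit did not pair them. Deviations of immobile and mobile control arrays of the same number correlated at r = 0.0848, 0.0696 and 0.181 across genes. For different numbers r ran from -0.203 to 0.132. With 3 arrays a group, these correlations cannot show whether limbs of one number shared a mouse. Immobile control and immobile p53 mKO arrays of the same number correlated at r = 0.621, 0.484 and 0.813, and the fit of 9 arrays treats them as independent. Of 121 called genes named in the text, 71 kept their call with the replicate block and only the 6 control arrays (397 of all 1243). With the median probe 107 of the 121 did (1002 of all 1243), with only the 6 control arrays 111 (909), and with no filter 113 (1050). The number was 120 with the replicate block in 9 arrays (1185), quantile normalization (1209) or eBayes trend and robust (1023). It was 121 with median centring (1224), array weights (1234) or the 60th percentile filter (1165). The array weights were 0.324, 4.22 and 0.340 for immobile control arrays 1, 2 and 3. The weighted fit therefore leaned on immobile array 2 and says little about the spread over the other immobile control arrays. The named genes were picked partly for large differences and small p, which favours keeping a call. With the median probe 3 of the 121 named genes and 21 of all 1243 changed sign. The 3 were Lrba (-0.087, limma's adjusted p = 0.353), Atp6ap2 (-0.04, 0.969) and Asph (0.0067, 0.935), whose probes disagree. With 3 arrays a group, 2879 genes had an unadjusted p under 0.05, and a gene that was not called is not shown to be unchanged.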
